A study of Mus musculus with 14 samples.

Results

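The 8 libraries described here are those of bone marrow dendritic cells in a series of 14 mouse libraries, chosen by their sample labels. Vehicle alone had been given for 4 of them and PAM3CSK4, once, for the other 4. Per the extract protocol all were sorted from the marrow of Cx3Cr1gfp/+ mice, in which 1 copy of the gene for the chemokine receptor CX3CR1 carries green fluorescent protein. The design text of the series calls the mice wildtype, and the labels do not settle which holds. The same gate is given for both groups. It took cells with high CX3CR1-GFP, high MHC class II and high CD11c that lacked Gr-1 and B220. The labels do not give the dose, the route, the time from dose to collection, or the age, sex and number of mice. They also do not say whether the replicates of a group are separate mice. Every p-value therefore measures the spread among these 8 libraries, part of which may be technical. The comparison asks how the dendritic cells that remain in this gate differ after stimulation of Toll-like receptors 1 and 2.

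PAM3CSK4 is a synthetic lipopeptide that mimics the lipid-modified end of bacterial lipoproteins and is recognised by Toll-like receptor 2 paired with Toll-like receptor 1. The pair signals through the adaptor MyD88 and IRAK kinases to NF-kB and the MAP kinases, which switch on cytokine genes and also the inhibitors that later end the response. Dendritic cells take up material through lectins and scavenger receptors, and after such a signal they commonly lower uptake, change their receptors for chemoattractants and present what they have taken up to T cells.

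Levels are in CPM, that is reads scaled to the library's total without division by gene length. They compare a gene between libraries and not genes with each other. Log2 changes are PAM3CSK4 less vehicle on the log2(CPM + 1) scale, with the standard error. The words "rose" and "fell" are used only of genes with an adjusted p under 0.05 in the limma test over all genes tested. In each list of 4 values the order is replicate 1 to 4, which is read here as a name only.

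PAM3CSK4 replicate 4 stood apart in genes of another cell type. The summed level of 24 neutrophil marker genes was 683 to 1180 CPM with vehicle, 704 to 1700 CPM in PAM3CSK4 replicates 1 to 3 and 12700 CPM in PAM3CSK4 replicate 4. None of the 24 was at 0 in all 8 libraries. Ly6g, which encodes an antigen of the excluded Gr-1 stain, was at 0, 0, 0.153 and 0.201 CPM with vehicle against 0.189, 0.248, 0.264 and 2.48 CPM after PAM3CSK4. Itgax, the gene of CD11c, was at 249, 271, 170.4 and 234 CPM with vehicle against 277, 181, 283 and 27.5 CPM after PAM3CSK4. H2-Ab1, an MHC class II chain, was at 2526, 2456, 1878 and 3155 CPM with vehicle against 948, 995, 1401 and 194 CPM after PAM3CSK4. Cx3cr1 was at 107, 172, 189 and 133 CPM with vehicle against 154, 209, 152 and 31.3 CPM after PAM3CSK4. Replicate 4 was thus the lowest of the 8 libraries in 3 genes the gate asked for. Fewer dendritic cells and less of an RNA per dendritic cell cannot be told apart in such bulk samples. Every call named below was therefore repeated without this library, and a call that was lost is named as such.

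Of 11377 genes tested with all 8 libraries, 582 changed (5.12%), of which 321 rose (2.82%) and 261 fell (2.29%). Without PAM3CSK4 replicate 4, 785 of 11499 genes changed (6.83%), with 463 rises (4.03%) and 322 falls (2.80%). Counts of called members in a gene list are to be read against the shares of the fit they come from. The calls of 506 genes, 265 rises and 241 falls, were made in both fits. They are 86.9% of the first set and 64.5% of the second, and 0 genes were called in opposite directions. Most changes were of moderate size. Between 2-fold and 4-fold lay 198 of the 321 rises and 183 of the 261 falls, 65 rises and 61 falls reached 4-fold, and 19 and 17 reached 8-fold. The groups did not overlap in 1681 of the genes tested (14.8%), of which 1148 were higher and 533 lower with PAM3CSK4. A call is described below as held where its adjusted p stayed under 0.05 in 8 fits that each left out 1 library and under each of 3 rescalings. There were 140 held calls, 46 rises and 94 falls. The call of any gene below that is not said to be held was lost in at least 1 of these fits. The number of calls depended strongly on single libraries, from 184 without vehicle replicate 2 to 1008 without PAM3CSK4 replicate 1, and 166 genes were called with no filter on low values. Rises and falls were 277 and 391 after rescaling to a common total, 208 and 487 after median centring and 237 and 438 after quantile normalization. Over all genes the median log2 change was 0.20 as deposited and −0.02 after median centring, so small rises of whole gene groups are to be read against that shift.

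**Figure D1:**
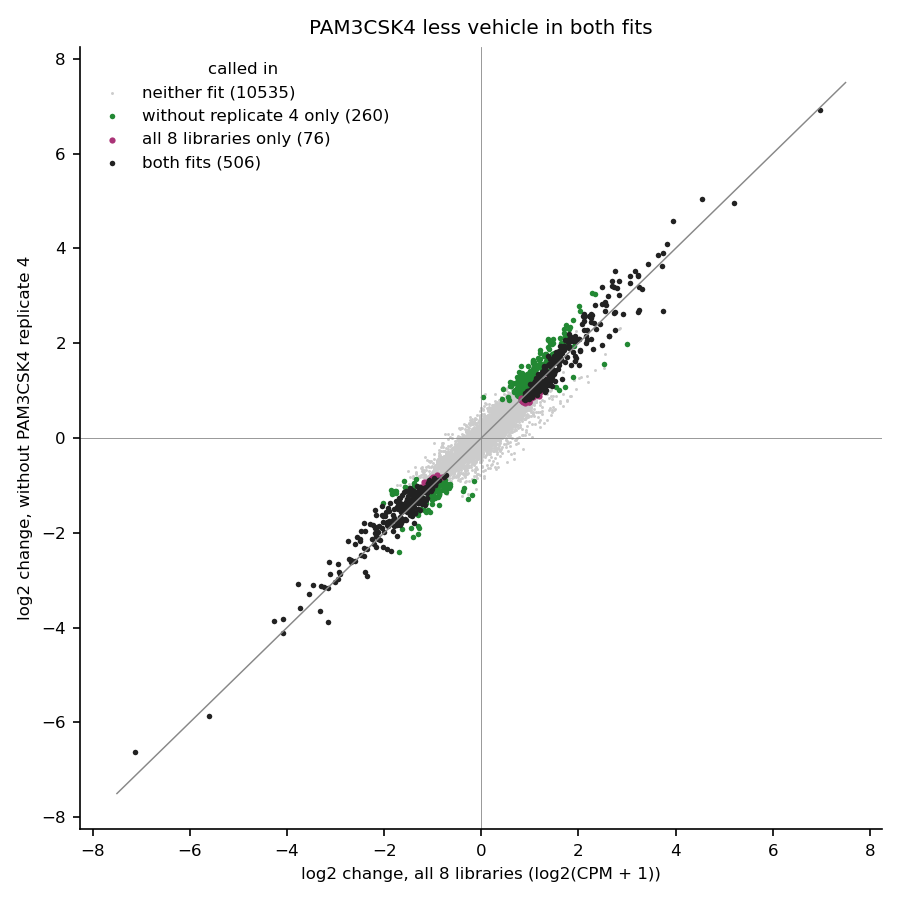
Log2 change (PAM3CSK4 less vehicle, log2(CPM + 1) scale) without PAM3CSK4 replicate 4 on the vertical axis against that with all 8 libraries on the horizontal axis, 1 point a gene tested in both fits; colours mark genes called in both fits, with all 8 libraries only, or without replicate 4 only, the line marks equal values, and both fits share 7 libraries. The 506 genes called in both lie in the same direction in each, and 76 calls were made with all 8 libraries only.

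Each library was also set against calls that it had no part in. With PAM3CSK4 replicate 4 held out, it lay above the vehicle mean in 83.4% of the 463 genes that rose in the other 7 libraries, with a median difference of 0.932 (log2). It lay below in 90.7% of the 322 genes that fell, with a median of −1.55. The same shares were 88.6% and 95.9% for replicate 1, 98% and 97.9% for replicate 2, and 100% and 97.6% for replicate 3. The median differences were 0.5 over rises and −0.883 over falls for replicate 1, and 2.12 and −1.53 for replicate 3. Vehicle libraries held out in the same way had medians from −0.115 to 0.386 over rises and from −0.366 to −0.00927 over falls. Vehicle libraries lay on the called side in 45.6% to 76.2% of rises and 50.8% to 72.5% of falls. All 4 treated libraries had higher shares than these. Each library was read over its own list of calls, so the medians of different libraries are not compared with each other.

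**Figure D2:**
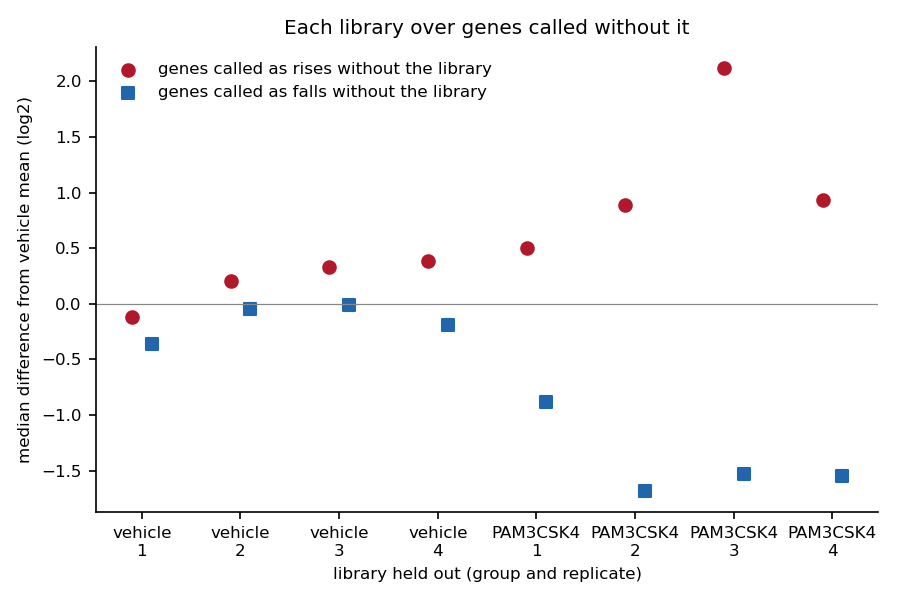
Median difference of each library from the mean of the vehicle libraries (log2 scale, vertical axis) over the genes called as rises or as falls in the fit of the other 7 libraries, 1 pair of points a library on the horizontal axis; the error is not drawn because each point is 1 library. The 4 PAM3CSK4 libraries lie at 0.5 to 2.12 over rises and −1.68 to −0.883 over falls, and the vehicle libraries at −0.115 to 0.386 and −0.366 to −0.00927.

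The rises ranked highest by size were Saa3 and Marco, followed by Fcrl5, Ly6d, Slc13a3 and Cfb, which are described with their groups. Saa3, which encodes serum amyloid A3, an acute-phase protein made locally by macrophages and other cells, was at 0, 0, 0.281 and 0 CPM with vehicle against 13.7, 646, 221 and 153 CPM after PAM3CSK4. Marco, a scavenger receptor for bacteria and particles, was at 1.69, 0.185, 0.562 and 0.802 CPM with vehicle against 15.7, 103, 89.6 and 103 CPM after PAM3CSK4. The log2 changes were 6.98 ± 0.84 and 5.2 ± 0.52 (adjusted p = 0.0011 and 3.5e-04). Ranked genes were taken only from those whose groups did not overlap. In both genes replicate 1 was the lowest of the 4 treated libraries. These were the highest ranked rises with a match to the NF-kB motif in the promoter window, and no other of the 30 ranked rises with a promoter sequence examined had one. The 2 windows are shown because they belong to those ranked rises. They run from 250 bases before to 50 bases after the RefSeq start site (GRCm38.p6), read 5′ to 3′ on the gene's strand, with the match in capitals:
Saa3, chr7:46715627-46715926, minus strand, match starting 187 bases before the start site: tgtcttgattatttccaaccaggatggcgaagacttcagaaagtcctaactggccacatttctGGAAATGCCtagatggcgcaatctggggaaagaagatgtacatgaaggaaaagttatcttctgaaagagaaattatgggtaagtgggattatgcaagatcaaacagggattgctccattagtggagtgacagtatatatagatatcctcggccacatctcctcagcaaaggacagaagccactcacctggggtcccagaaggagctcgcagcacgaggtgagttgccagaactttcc
Marco, chr1:120504975-120505274, minus strand, match starting 29 bases before the start site: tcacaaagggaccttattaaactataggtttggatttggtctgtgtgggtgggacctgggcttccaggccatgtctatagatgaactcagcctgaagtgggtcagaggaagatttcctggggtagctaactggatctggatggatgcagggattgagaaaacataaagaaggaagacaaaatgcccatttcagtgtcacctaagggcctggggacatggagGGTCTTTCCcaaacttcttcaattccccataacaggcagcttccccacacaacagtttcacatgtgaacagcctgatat

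The motif searched was GGNNTTTCC on both strands, and a match is a description of letters and not a binding site. It stood in 18 of the 238 rises that have a promoter sequence (7.56%), in 10 of 204 falls (4.9%) and in 545 of all 8812 genes tested that have one (6.18%). The other shares are given in the order rises, falls and all genes. They were 9.66%, 9.8% and 8.24% for the C/EBP motif TTGCNNAA and 4.62%, 3.92% and 6.81% for the STAT motif TTCNNNGAA. The AP-1 motif TGANTCA had 6.72%, 8.82% and 4.74%, and the IRF motif GAAANNGAA 8.82%, 11.3% and 7.63%. The antioxidant motif TGACNNNGC had 16.4%, 9.8% and 15%. For the E2F motif GGCGGGAA, the site of factors that drive replication genes, they were 7.14%, 2.45% and 4.41%, or 17 of 238, 5 of 204 and 389 of 8812. For the PU.1 motif GAGGAAGT, the site of a factor that sets up myeloid cells, they were 5.88%, 3.92% and 3.56%. The motifs differ in length and can overlap one another, and none of the differences in share was tested.

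Several cell surface receptors rose. Of 31 complement and chemoattractant receptors tested, 3 rose, Fpr1, Fpr2 and C3ar1, and 3 fell, Cysltr1, Gpr34 and Adora2b. These were 9.68% each way, beside 2.82% and 2.29% of all genes. In the fit without PAM3CSK4 replicate 4, 5 rose and 6 fell. Fcrl5 (chromosome 3, 87435782 to 87500679 in mm10), an Fc receptor-like protein best known from B cells, was at 3.35, 0.598, 0.485 and 2.02 CPM with vehicle against 42.7, 116, 90.4 and 19.4 CPM after PAM3CSK4. Its log2 change was 4.55 ± 0.52 (adjusted p = 9.5e-04). Fpr1, a receptor for bacterial and mitochondrial formyl peptides, was at 1.13, 1.53, 1.38 and 1.76 CPM with vehicle against 6.41, 105, 33.8 and 38.3 CPM after PAM3CSK4. Its relative Fpr2 was at 2.1, 1.27, 2.53 and 1.47 CPM with vehicle against 6.03, 67.3, 30.3 and 39.1 CPM after PAM3CSK4. Both were lowest in replicate 1 among the treated libraries, with log2 changes of 3.72 ± 0.6 and 3.32 ± 0.54 (adjusted p = 0.0073 and 0.0077). The 2 genes are near relatives, and reads shared between them would be uncertain. The inhibitory receptors Siglece (chromosome 7, 43651070 to 43660162 in mm10) and Cd72 rose by 3.23 ± 0.41 and 3.07 ± 0.37 on the log2 scale (adjusted p = 0.0014 and 0.0011). Siglece went from 13.8 ± 3.18 to 162 ± 113 CPM (SD, n = 4) and Cd72 from 3.59 ± 0.655 to 42.2 ± 22.6 CPM. C3ar1, the receptor of the complement fragment C3a, was at 27.7, 48.1, 43.8 and 20.3 CPM with vehicle against 119, 312, 220.2 and 53 CPM after PAM3CSK4. It rose by 2.1 ± 0.47 (adjusted p = 0.028), a call lost in 6 of the 8 fits with 1 library left out (adjusted p up to 0.097, without vehicle replicate 1). The calls of Saa3, Marco, Fcrl5, Fpr1, Fpr2, Siglece, Cd72 and Cysltr1 were held.

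The receptor of the agonist itself was not among the genes called. Tlr2 was at 45.9, 79.2, 80.6 and 52.8 CPM with vehicle against 46.2, 71.8, 54.6 and 38.4 CPM after PAM3CSK4, and its groups overlapped (log2 change −0.28 ± 0.26, adjusted p = 0.52). Tlr1 was at 40.3, 45.5, 26.7 and 28.5 CPM with vehicle against 41.3, 129.7, 65.7 and 28.6 CPM after PAM3CSK4 (0.7 ± 0.39, adjusted p = 0.29). The log2 changes of Tlr6, Myd88 and Tirap were 0.08 ± 0.3, 0.64 ± 0.24 and −0.37 ± 0.33 (adjusted p = 0.9, 0.13 and 0.51). None of the 5 passed without PAM3CSK4 replicate 4 either. Among 28 Toll-like receptors and adaptors tested, 1 rose and 3 fell (3.57% and 10.7%, beside 2.82% and 2.29% of all genes). The median was −0.105 beside 0.203 over all genes. Without PAM3CSK4 replicate 4, 1 rose and 2 fell, with a median of 0.0357 beside 0.192, so the sign of the median depended on that library. Tlr11, a sensor of profilin and flagellin that marks type 1 dendritic cells in mice, was at 25.1, 20.5, 22 and 14.7 CPM with vehicle against 3.12, 4.15, 6.54 and 0.674 CPM after PAM3CSK4. Its fall was held (log2 change −2.39 ± 0.4, adjusted p = 0.0078). Tlr3, the sensor of double-stranded RNA, fell (log2 change −1.97 ± 0.41), a call lost in 2 of the 8 fits with 1 library left out (adjusted p up to 0.064, without vehicle replicate 3). The cytosolic flagellin sensor Naip5 (chromosome 13, 100211740 to 100247337 in mm10) was at 73.7, 60.4, 64.3 and 52.2 CPM with vehicle against 24, 28.1, 20.6 and 26.2 CPM after PAM3CSK4. The groups did not overlap (log2 change −1.3 ± 0.2, adjusted p = 0.0055), and the fall was held. Its near-identical relative Naip6 had a log2 change of −1.1 ± 0.21. Of 26 cytosolic sensors and inflammasome genes listed, 25 were tested, 1 rose and these 2 fell (4% and 8%, beside 2.82% and 2.29% of all genes).

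The falls were led by uptake receptors. Of 27 C-type lectin genes tested, 11 fell and 1 rose (40.7% and 3.7%, beside 2.29% and 2.82% of all genes). Of the falls, 9 were held. Without PAM3CSK4 replicate 4, 12 of 28 fell and 5 rose. Cd209a, the mouse gene most like the human lectin DC-SIGN, was at 404, 443, 394 and 323 CPM with vehicle against 9.64, 1.7, 1.16 and 0 CPM after PAM3CSK4. Mgl2, a galactose-type lectin, was at 174, 106, 37.6 and 102 CPM with vehicle against 0.733, 0.717, 0.371 and 2.33 CPM after PAM3CSK4. Clec10a, the neighbouring galactose-type lectin, was at 129, 107, 73 and 89.5 CPM with vehicle against 10.3, 3.49, 5.27 and 1.12 CPM after PAM3CSK4. All 3 were near or below 10 CPM in every treated library. The mannose receptor Mrc1 was at 232, 291, 212 and 199 CPM with vehicle against 25.9, 62.8, 11 and 2.93 CPM after PAM3CSK4. The beta-glucan receptor Clec7a (chromosome 6, 129461591 to 129472780 in mm10), known as dectin-1, was at 79.3, 122, 113 and 58 CPM with vehicle against 24.5, 18.6, 21.9 and 12.3 CPM after PAM3CSK4 (log2 change −2.19 ± 0.29, adjusted p = 0.0018). In each of these lectins the highest treated library lay below the lowest vehicle library. For all but Clec7a this was a condition of the ranking. These 5 calls and those of Cd209b, Cd209c, Cd209d and Cd209e were held, and the other falls were Clec1a and Klrb1b. The Cd209 genes are a family of close copies among which reads can be split. The 1 rise, Cd209f, went from 0.737 ± 0.741 to 3.53 ± 1.9 CPM and was lost in 5 of the 8 fits with 1 library left out (adjusted p up to 0.1, without vehicle replicate 2) and under all 3 rescalings. The rises without replicate 4 were Cd209f and, in the Clec4a cluster, Clec4a1, Clec4a2, Clec4a3 and Clec4a4. The log2 changes of these 4 were then 1.78 ± 0.29, 1.72 ± 0.41, 1.28 ± 0.33 and 2.1 ± 0.3.

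**Figure D3:**
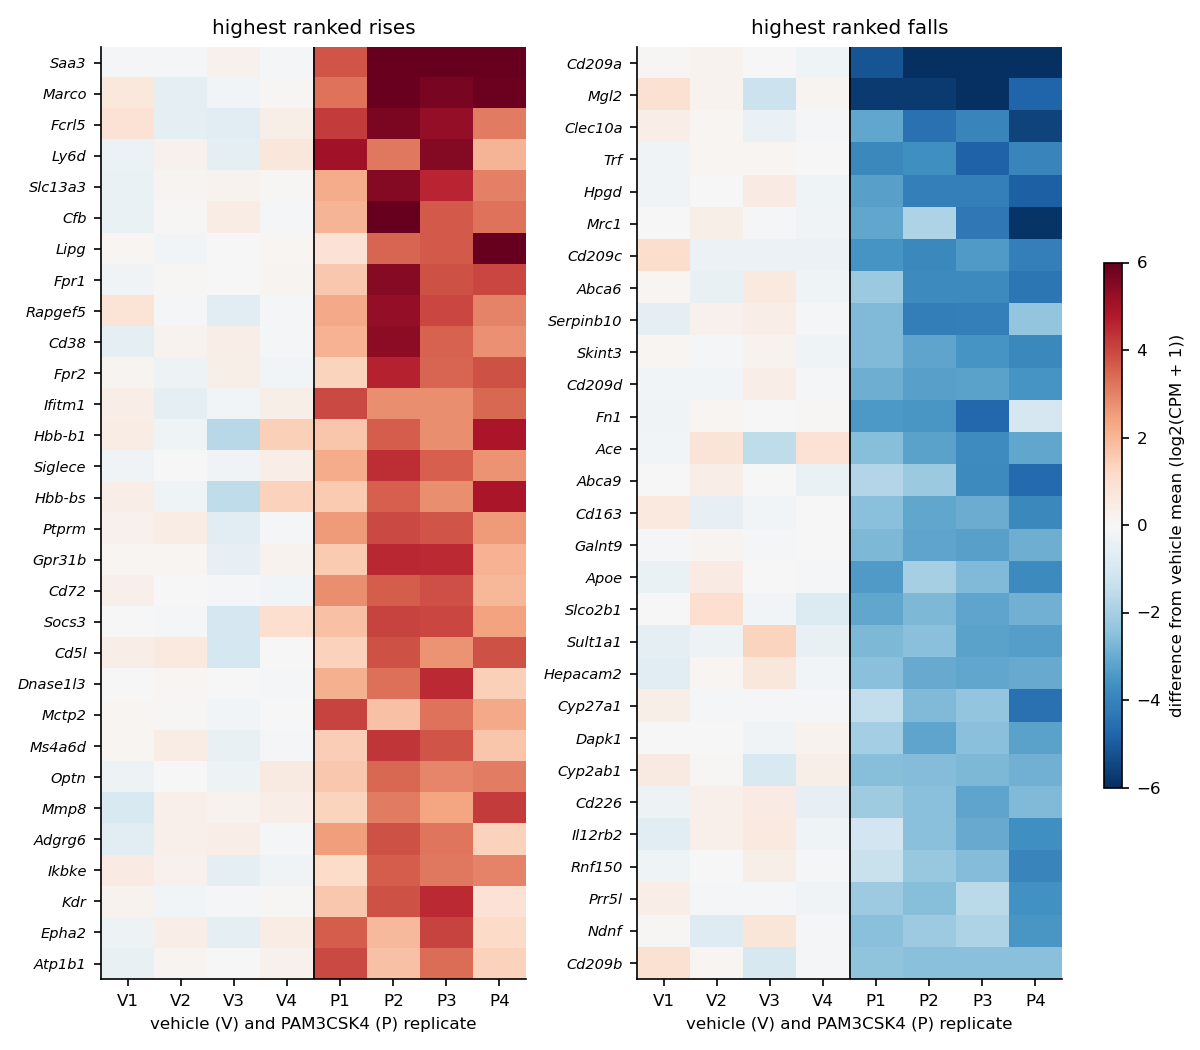
Difference of each library from the vehicle mean (log2(CPM + 1) scale, colour, cut at 6 in either direction) for the highest ranked rises and falls among genes called in both fits, without those not reported here, 1 row a gene and 1 column a library. Ranked genes were chosen to have no overlap between groups, so the falls are below every vehicle library in all 4 PAM3CSK4 libraries. They are least so for Fn1 in replicate 4 (122 CPM) and Il12rb2 in replicate 1 (9.86 CPM). Some rises, such as Fpr1 and Cfb, are smallest in PAM3CSK4 replicate 1.

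Of 27 scavenger and efferocytosis receptors tested, 4 rose and 4 fell with all 8 libraries (14.8% each way, beside 2.82% and 2.29% of all genes). Without PAM3CSK4 replicate 4, 6 of 28 rose and 4 fell. The median log2 change was −0.264 with all 8 libraries and 0.157 without that replicate. Cd163, the receptor for haptoglobin-bound haemoglobin, was at 64.9, 30.4, 38.4 and 43.8 CPM with vehicle against 6.73, 4.0, 4.49 and 2.01 CPM after PAM3CSK4. Axl, which binds Gas6 on dying cells, was at 108, 169, 61.7 and 111 CPM with vehicle against 11.9, 27.1, 45.2 and 18 CPM after PAM3CSK4. Both fell, with log2 changes of −3.12 ± 0.32 and −2.17 ± 0.39 (adjusted p = 3.5e-04 and 0.01). Stab2, a hyaluronan scavenger receptor, was low throughout, with a mean of 3.4 ± 0.809 CPM in the vehicle libraries against 0.393 ± 0.395 CPM after PAM3CSK4. Trem2 was the other fall, lost in 3 of the 8 fits with 1 library left out (adjusted p up to 0.063, without vehicle replicate 1). Against these, Cd5l, a secreted scavenger protein of macrophages, was at 5.36, 6.3, 1.33 and 3.95 CPM with vehicle against 11.5, 66.6, 29.9 and 67.3 CPM after PAM3CSK4 (log2 change 2.92 ± 0.52, adjusted p = 0.01). The calls of Marco, Cd5l, Cd163, Axl and Stab2 were held. The other rises with all 8 libraries were Cd300lf and Trem3, lost in 4 and 6 of the 8 fits. Their adjusted p went up to 0.069 without vehicle replicate 2 and 0.14 without vehicle replicate 1.

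Receptors for cytokines and for migration included several falls. Of 38 cytokine receptor genes tested, 6 fell and 1 rose (15.8% and 2.63%), beside 2.29% and 2.82% of all genes. Without PAM3CSK4 replicate 4, 6 of 39 fell and 4 rose, and without vehicle replicate 2 only 2 fell. Il12rb2 (chromosome 6, 67292018 to 67376189 in mm10), a chain of the interleukin 12 receptor, was at 14.5, 28.2, 34.3 and 19.1 CPM with vehicle against 9.86, 3.16, 1.89 and 0.878 CPM after PAM3CSK4. Il13ra1, a chain for interleukins 4 and 13, was at 38.7, 55.9, 98.5 and 38.6 CPM with vehicle against 21.5, 12.3, 10.1 and 5.87 CPM after PAM3CSK4. Il6ra, the interleukin 6 receptor, was at 102, 143, 136 and 157 CPM with vehicle against 67.1, 51.4, 61.8 and 58.5 CPM after PAM3CSK4. All 3 were lower in every treated library than in any vehicle library. The first 2 falls were held, with log2 changes of −2.59 ± 0.47 and −2.15 ± 0.38 (adjusted p = 0.011 and 0.0097). That of Il6ra (−1.15 ± 0.21, adjusted p = 0.011) was lost in 1 of the 8 fits with 1 library left out (adjusted p up to 0.051, without vehicle replicate 2). Ifngr1, the binding chain of the interferon gamma receptor, fell (log2 change −1.02 ± 0.23), lost in 4 of the 8 fits with 1 library left out (adjusted p up to 0.093, without vehicle replicate 2). The rise was Il1r1, the interleukin 1 receptor, from 0.763 ± 0.367 to 3.44 ± 1.57 CPM, lost in 5 of the 8 fits with 1 library left out (adjusted p up to 0.097, without vehicle replicate 1). Among 17 chemokine and sphingosine phosphate receptors, 3 fell and 0 rose (17.6% and 0%, beside 2.29% and 2.82% of all genes). Without PAM3CSK4 replicate 4, 3 fell and 2 rose. Ccr2, which brings monocytes and their offspring out of the marrow, was at 592, 914, 1199 and 567 CPM with vehicle against 336, 249, 168 and 174 CPM after PAM3CSK4. S1pr5, an egress receptor of patrolling monocytes and natural killer cells, was at 4.85, 10.8, 4.01 and 9.09 CPM with vehicle against 0.347, 0.496, 0.264 and 0.72 CPM after PAM3CSK4. Both falls were held, with log2 changes of −1.8 ± 0.31 and −2.41 ± 0.3 (adjusted p = 0.009 and 0.0015). Cxcr3 fell (log2 change −1.82 ± 0.37), lost in 3 of the 8 fits with 1 library left out (adjusted p up to 0.064, without vehicle replicate 3). Ccr7, which guides mature dendritic cells to lymph nodes, was at 2.37, 6.74, 7.87 and 4.46 CPM with vehicle against 13.1, 25.6, 40.8 and 2.64 CPM after PAM3CSK4, with overlapping groups (adjusted p = 0.19). Of the 2 fits it passed only in that without replicate 4 (log2 change 2.07 ± 0.39, adjusted p = 0.005).

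Among signalling genes, the held rises included the inhibitors Irak3 and Socs3. Irak3 (chromosome 10, 120141648 to 120202131 in mm10), also called IRAK-M, which blocks signalling below Toll-like receptors, was at 10.6, 10.4, 12 and 4.93 CPM with vehicle against 28.7, 141, 35 and 59.6 CPM after PAM3CSK4. Socs3 (chromosome 11, 117966087 to 117969367 in mm10), which blocks cytokine signalling through JAK kinases, was at 9.71, 8.99, 4.24 and 19.9 CPM with vehicle against 34, 173, 166 and 55 CPM after PAM3CSK4. Their log2 changes were 2.45 ± 0.44 and 3.06 ± 0.53 (adjusted p = 0.01 and 0.0089), with no overlap between groups, and both calls were held. Ikbke (chromosome 1, 131254602 to 131279564 in mm10), a kinase induced by NF-kB, was at 12.5, 10.4, 5.36 and 7.19 CPM with vehicle against 19.2, 118, 85.2 and 73.8 CPM after PAM3CSK4. Optn, a ubiquitin-binding adaptor in the same signalling, was at 1.17, 1.75, 1.2 and 2.89 CPM with vehicle against 7.12, 28.2, 19.2 and 21.5 CPM after PAM3CSK4. Both rises were held (log2 changes 2.73 ± 0.47 and 2.76 ± 0.37, adjusted p = 0.0084 and 0.0023). Of 39 feedback inhibitors tested, 4 rose and 1 fell (10.3% and 2.56%), beside 2.82% and 2.29% of all genes. In 15.4% of the 39 the groups did not overlap, beside 14.8% of all genes. A positive log2 change was found in 53.8%, beside 67.3%, and the median was 0.285, beside 0.203. The other rises, Tnip1 and Fkbp5, were lost in 6 and 6 of the 8 fits, Fkbp5 also without PAM3CSK4 replicate 4. The fall was Tsc22d3, a glucocorticoid-induced inhibitor, lost in 4 of the 8 fits with 1 library left out (adjusted p up to 0.08, without vehicle replicate 1). Among 32 NF-kB and JAK-STAT genes, Ikbke alone rose and Tyk2 and Irf5 fell, Irf5 only with replicate 4 included.

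Immediate early genes had mostly negative log2 changes. Of 22 AP-1 and immediate early genes tested, 18 had a negative log2 change and 4 fell (18.2%, beside 2.29% of all genes). A positive one was found in 18.2%, beside 67.3% of all genes. The median was −0.884 (−0.796 without PAM3CSK4 replicate 4 and −1.10 after median centring). The list mean less the vehicle mean was −0.417 to 0.342 in vehicle libraries. It was −1.01, −0.554, −0.15 and −0.533 after PAM3CSK4, so replicate 3 lay within the vehicle range. Btg2, an antiproliferative early gene, was at 232, 182, 168 and 217 CPM with vehicle against 87.8, 89.9, 81.9 and 54.9 CPM after PAM3CSK4. The zinc finger factor Egr2 was at 6.8, 13.3, 5.78 and 5.13 CPM with vehicle against 1.94, 2.15, 1.79 and 1.74 CPM after PAM3CSK4. Both falls were held (log2 changes −1.35 ± 0.23 and −1.51 ± 0.28, adjusted p = 0.0079 and 0.013). Ier2 and Btg1 also fell, but were lost in 7 and 7 of the 8 fits with 1 library left out, Btg1 also without PAM3CSK4 replicate 4. These genes respond to handling of cells as well as to stimuli, and the part of the sort in their levels was not tested.

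Of 45 lineage transcription factors tested, 2 rose and 2 fell (4.44% each way, beside 2.82% and 2.29% of all genes). There were 4 rises and 2 falls without PAM3CSK4 replicate 4. With vehicle replicate 1 left out 0 were called in limma, and at an unadjusted p under 0.05 there were 3 with a positive and 5 with a negative log2 change. Irf4, which type 2 dendritic cells need, was at 87.7, 102, 117 and 96.9 CPM with vehicle against 57.1, 24, 29.2 and 4.53 CPM after PAM3CSK4. It fell (log2 change −2.19 ± 0.54, adjusted p = 0.039), and Zbtb46, a factor of conventional dendritic cells, fell (log2 change −1.68 ± 0.39, adjusted p = 0.031). Nr1h3, the oxysterol receptor LXR alpha, was at 7.72, 9.27, 4.58 and 6.69 CPM with vehicle against 16.4, 143, 70.1 and 20.7 CPM after PAM3CSK4. It rose by 2.49 ± 0.56 (adjusted p = 0.027), and Batf rose by 1.54 ± 0.34 (adjusted p = 0.026). None of these 4 was held. In that order they were lost in 6, 6, 5 and 6 of the 8 fits, with adjusted p up to 0.11, 0.092, 0.086 and 0.085. Zbtb16, the factor PLZF, is in none of the lists and was singled out after its values were seen. It was at 16.3, 12, 8.23 and 16.2 CPM with vehicle against 1.27, 0.618, 0.961 and 5.63 CPM after PAM3CSK4, and its fall was held (log2 change −2.38 ± 0.41). Of 13 Kruppel-like factors, Klf7 rose and Klf4 fell (log2 changes 1.41 ± 0.32 and −1.1 ± 0.25), lost in 6 and 5 of the 8 fits.

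Secreted products changed in both directions. Cfb (chromosome 17, 34856374 to 34862515 in mm10), factor B, which builds the alternative pathway convertase, was at 1.51, 2.43, 3.47 and 2.13 CPM with vehicle against 12.5, 211, 41.5 and 31 CPM after PAM3CSK4. Its log2 change was 3.75 ± 0.63 (adjusted p = 0.0079), without overlap between groups, and the call was held. Cd55, a membrane inhibitor of the convertase, rose by 1.93 ± 0.39 from 0.466 ± 0.265 to 5.3 ± 3.35 CPM, lost in 3 of the 8 fits with 1 library left out (adjusted p up to 0.063, without vehicle replicate 1). The chemokine Ccl6 was at 128, 166, 205 and 121 CPM with vehicle against 38.9, 72.8, 25.2 and 31.1 CPM after PAM3CSK4. Its neighbour Ccl9 was at 180.4, 259, 340.3 and 193 CPM with vehicle against 98.4, 68.7, 81.9 and 47.3 CPM after PAM3CSK4. Both were held falls (log2 changes −1.94 ± 0.31 and −1.7 ± 0.28, adjusted p = 0.0076 and 0.0077). The inflammatory chemokine Ccl2 was at 0, 2.37, 0.281 and 0.134 CPM with vehicle against 1.5, 17.5, 7.33 and 4.46 CPM after PAM3CSK4. The cytokine Il1b was at 14.9, 15.6, 5.08 and 9.86 CPM with vehicle against 41.6, 112, 71.6 and 16.2 CPM after PAM3CSK4. Both rose (log2 changes 2.19 ± 0.55 and 2.11 ± 0.51, adjusted p = 0.042 and 0.035). They were lost in 5 and 6 of the 8 fits, with adjusted p up to 0.14 and 0.1, and under 2 of the 3 rescalings. Of 25 cytokines and growth factors tested, Il1b was the only rise and Tnfsf13b and Igf1 fell (log2 changes −1.37 ± 0.31 and −1.62 ± 0.31), lost in 5 and 1 of those fits. Fn1, fibronectin, was at 212, 265, 250.2 and 253 CPM with vehicle against 21.2, 20.7, 8.51 and 122 CPM after PAM3CSK4. Its log2 change of −3.16 ± 0.58 (adjusted p = 0.011) became −3.88 ± 0.29 without replicate 4, the treated library with the highest level, and was lost in 1 of the 8 fits with 1 library left out (adjusted p up to 0.051, without vehicle replicate 1).

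Most MHC class II genes had lower levels, and the calls depended on PAM3CSK4 replicate 4. Of 16 MHC class II genes tested, 14 had a negative log2 change, with a median of −1.45 and of −0.833 without that replicate, while 1 fell with all 8 libraries and 8 fell without it, where 2 rose. H2-Aa was at 2773, 3330, 3215 and 3225 CPM with vehicle against 1457, 1441, 1480 and 182 CPM after PAM3CSK4. The invariant chain Cd74 was at 4272, 4830, 4735 and 6097 CPM with vehicle against 2125, 2072, 2494 and 337 CPM after PAM3CSK4. Neither passed with all 8 libraries (adjusted p = 0.083 and 0.072), although the groups did not overlap. Both fell without replicate 4 (log2 changes −1.1 ± 0.23 and −1.15 ± 0.25, adjusted p = 0.01 and 0.012). H2-DMa, a peptide-loading chain, fell in both fits (log2 changes −1.6 ± 0.4 and −1.14 ± 0.26), and was lost in 5 of the 8 fits with 1 library left out (adjusted p up to 0.11, without vehicle replicate 4). MHC class II was itself part of the gate, and the purity of the sort was not tested. Cst3 (cystatin C), an inhibitor of lysosomal cathepsins, was at 399, 636, 640.1 and 695 CPM with vehicle against 242, 170.4, 225 and 95.6 CPM after PAM3CSK4. Ctsl, cathepsin L, was at 14.8, 9.44, 16.3 and 10.2 CPM with vehicle against 37.5, 72.4, 39 and 30.2 CPM after PAM3CSK4. These were a held fall and a held rise (log2 changes −1.74 ± 0.31 and 1.7 ± 0.29, adjusted p = 0.01 and 0.0084).

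Among 31 costimulatory and checkpoint genes tested, 2 rose and 2 fell (6.45% each way, beside 2.82% and 2.29% of all genes). With PAM3CSK4 replicate 4 left out 6 rose and 3 fell. Leaving out vehicle replicate 1 gave 0 rises and 1 fall in limma, and 7 positive and 5 negative log2 changes at an unadjusted p under 0.05. Cd274, which encodes the checkpoint ligand PD-L1, was at 17.7, 12.4, 14 and 10.6 CPM with vehicle against 36.4, 149, 115 and 31.3 CPM after PAM3CSK4, with no overlap between groups. Its rise (log2 change 2.23 ± 0.45, adjusted p = 0.017) was lost in 4 of the 8 fits with 1 library left out (adjusted p up to 0.061, without vehicle replicate 2). Tnfsf8, the ligand of CD30, was at 5.59, 7.96, 8.23 and 3.29 CPM with vehicle against 1.53, 0.39, 0.561 and 0.199 CPM after PAM3CSK4, a held fall (log2 change −2.12 ± 0.32, adjusted p = 0.0047). Of 26 MHC class I and immunoproteasome genes, only Cd1d1, which presents lipids, rose, and of 42 interferon-stimulated genes 0 were called in limma. At an unadjusted p under 0.05 that count was 9. Without PAM3CSK4 replicate 4, 2 of the 42 rose and 1 fell in limma. Ifitm1, a membrane protein that limits virus entry and is in another list, was at 2.98, 1.1, 1.7 and 2.87 CPM with vehicle against 47, 20.2, 20.3 and 32.1 CPM after PAM3CSK4. It was highest in replicate 1, and its rise of 3.25 ± 0.32 (adjusted p = 3.1e-04) was held.

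Lipid genes changed in both directions. Of 39 genes of lipid export and storage tested, 4 rose, Nr1h3, Lpcat3, Lipg and Acsl5, and 3 fell, Apoe, Abca6 and Abca9 (10.3% and 7.69%). The counts were 5 rises and 3 falls without PAM3CSK4 replicate 4, and 0 rises and 3 falls in limma without vehicle replicate 1, where 5 positive log2 changes had an unadjusted p under 0.05. Slc13a3 (chromosome 2, 165405295 to 165473198 in mm10), a sodium-coupled carrier of dicarboxylates such as succinate, was at 6.24, 9.65, 10.1 and 9.13 CPM with vehicle against 44.6, 434, 228 and 77.6 CPM after PAM3CSK4. Its rise was held (log2 change 3.83 ± 0.56, adjusted p = 0.0037). Hpgd (chromosome 8, 56294552 to 56321047 in mm10), which breaks down prostaglandin E2, was at 49.6, 56, 80.3 and 48.6 CPM with vehicle against 5.14, 2.41, 2.41 and 0.965 CPM after PAM3CSK4. Apoe, the lipid carrier apolipoprotein E, was at 327, 611, 424 and 399 CPM with vehicle against 40.3, 107, 68.5 and 29.3 CPM after PAM3CSK4. Their log2 changes were −4.08 ± 0.33 and −2.96 ± 0.36 (adjusted p = 5.2e-05 and 0.0013). Abca9, a transporter of the lipid-carrying ABCA family, was at 158, 214, 164 and 121 CPM with vehicle against 46.5, 33.6, 10.4 and 5.31 CPM after PAM3CSK4. Its neighbour Abca6 was at 20.9, 14.2, 29.3 and 16.1 CPM with vehicle against 3.36, 0.425, 0.466 and 0 CPM after PAM3CSK4. Cyp27a1, which makes an oxysterol from cholesterol, was at 128, 92.4, 92.5 and 90.4 CPM with vehicle against 35.3, 14.8, 18.4 and 3.57 CPM after PAM3CSK4. All 5 of these falling genes are ranked ones, chosen without overlap between groups. All were held except Cyp27a1, which was lost in 1 of the 8 fits with 1 library left out (adjusted p up to 0.052, without vehicle replicate 1). Of 24 cholesterol synthesis genes tested, 21 had a negative log2 change, with a median of −0.45 (−0.44 without replicate 4). A positive one was found in 12.5%, beside 67.3% of all genes. In 12.5% the groups did not overlap, beside 14.8% of all genes. The list mean less the vehicle mean was −0.526 to 0.503 in vehicle libraries. It was −0.0531, −0.859, −0.504 and −0.717 after PAM3CSK4, so replicates 1 and 3 lay within the vehicle range. Of the 24, 2 fell in each fit (8.33% with all 8 libraries, beside 2.29% of all genes), and neither was held.

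In iron handling, 5 of 25 genes tested rose and 2 fell (20% and 8%, beside 2.82% and 2.29% of all genes). Without PAM3CSK4 replicate 4, 8 rose and 2 fell. Tfrc (chromosome 16, 32608896 to 32632795 in mm10), the transferrin receptor, was at 19.4, 27.7, 34.1 and 21 CPM with vehicle against 101, 83.3, 158 and 175 CPM after PAM3CSK4. Trf, transferrin itself, was at 353, 444, 434 and 397 CPM with vehicle against 27.2, 30.7, 13.2 and 24.8 CPM after PAM3CSK4. Both were held, with log2 changes of 2.26 ± 0.28 and −4.09 ± 0.26 (adjusted p = 0.0014 and 2.2e-05). Cp, the ferroxidase ceruloplasmin, was at 5.6, 3.97, 4.32 and 3.33 CPM with vehicle against 14.5, 68.7, 44.6 and 18.1 CPM after PAM3CSK4, and its rise was also held (2.57 ± 0.42, adjusted p = 0.0077). Hmox1, haem oxygenase, was at 77.1, 85.3, 42.4 and 51.4 CPM with vehicle against 178, 835, 314 and 168 CPM after PAM3CSK4. Slc39a14, a zinc and iron importer, was at 4.09, 8.85, 6.6 and 3.8 CPM with vehicle against 13.6, 47.9, 26.8 and 18.3 CPM after PAM3CSK4. These rises (log2 changes 2.26 ± 0.45 and 1.93 ± 0.37) were lost in 3 and 1 of the 8 fits. Of the ectoenzymes, Cd38 (chromosome 5, 43868809 to 43912375 in mm10), which consumes NAD, was at 3.9, 7.46, 8.56 and 5.93 CPM with vehicle against 29.8, 295, 83.8 and 47.4 CPM after PAM3CSK4. Ace, angiotensin-converting enzyme, was at 56.6, 108, 21.3 and 117 CPM with vehicle against 9.95, 5.87, 3.66 and 6.35 CPM after PAM3CSK4. The dipeptidase Dpep2 was at 18.5, 16.5, 15.1 and 16.3 CPM with vehicle against 2.53, 3.31, 1.72 and 2.3 CPM after PAM3CSK4. All 3 calls were held, with log2 changes of 3.43 ± 0.55, −3.16 ± 0.47 and −2.36 ± 0.23 (adjusted p = 0.0073, 0.004 and 2.6e-04). Genes of red cell precursors were summed too. Their summed level over 15 genes was 33.1 to 253 CPM with vehicle and 102 to 1310 CPM after PAM3CSK4. Of 11 tested, 3 rose (27.3%, beside 2.82% of all genes), and none of these rises was held. In 9.09% of the 11 the groups did not overlap, beside 14.8% of all genes. None of the 15 was at 0 in all libraries, and the part of such RNA in the iron list was not tested.

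DNA replication was the list with the most rises, 17 of 31 (54.8%, beside 2.82% of all genes). All 31 genes of the list had a positive log2 change, beside 67.3% of all genes tested, with a median of 1.11 beside 0.203. In 21 of them (67.7%) the groups did not overlap, beside 14.8% of all genes. Without PAM3CSK4 replicate 4 the median was 0.88 and 12 rose, and after median centring 10 rose. Mcm2, a subunit of the replicative helicase, was at 28.8, 37.3, 32.8 and 57.9 CPM with vehicle against 87.4, 62.4, 112 and 174 CPM after PAM3CSK4. Rrm1 (chromosome 7, 102441695 to 102469772 in mm10), of ribonucleotide reductase, was at 50.8, 72.9, 84.3 and 80.3 CPM with vehicle against 194, 133, 147 and 223 CPM after PAM3CSK4. The sliding clamp Pcna was at 43.6, 57.8, 49.4 and 52.2 CPM with vehicle against 96.9, 88.5, 87 and 104 CPM after PAM3CSK4. Their log2 changes were 1.4 ± 0.32, 1.26 ± 0.24 and 0.88 ± 0.19 (adjusted p = 0.028, 0.015 and 0.024). Those without replicate 4 were 1.14 ± 0.28, 1.13 ± 0.25 and 0.83 ± 0.22 (adjusted p = 0.025, 0.014 and 0.033). None of the 17 was held, and the number of rises ranged from 0 without vehicle replicate 2 to 19 without PAM3CSK4 replicate 2. Of the genes of mitosis, 25 of 26 had a positive log2 change, with a median of 0.743. In limma 0 were called, with or without replicate 4, and 16 had an unadjusted p under 0.05. Cdk1, the mitotic kinase, was at 23.8, 33.4, 35.4 and 42.1 CPM with vehicle against 78.8, 34.2, 53.3 and 83.7 CPM after PAM3CSK4, with overlapping groups. The mean of the mitosis list over the vehicle mean was 1.34 and 0.93 (log2) in replicates 1 and 4 and 0.02 and 0.49 in replicates 2 and 3. That of the replication list was 1.11, 0.56, 1.02 and 1.58 in replicates 1 to 4. Over stem and progenitor cell markers it was 0.302, 0.194, 0.458 and 0.935, and over erythroid markers 0.323, 2.07, 1.57 and 3.88. All 3 lists were highest in replicate 4, and the part of such cells in the replication list was not tested. Of 14 stem and progenitor markers tested 2 rose (14.3%, beside 2.82% of all genes), and none of the 16 listed was at 0 in all libraries.

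**Figure D4:**
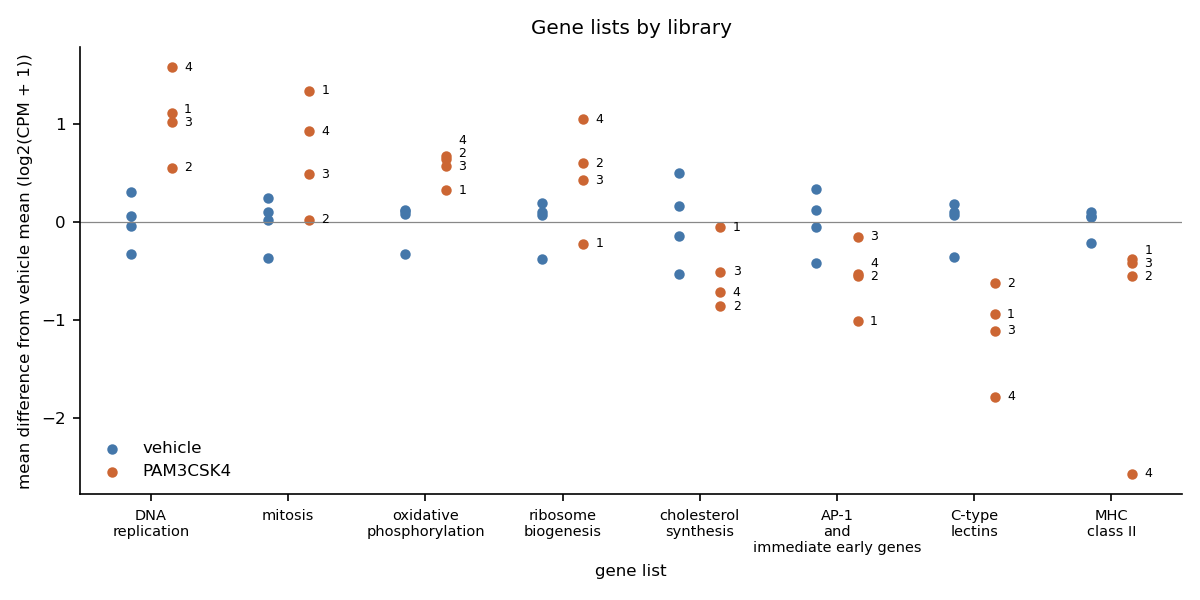
Mean difference from the vehicle mean (log2(CPM + 1) scale, vertical axis) over the members of 8 gene lists, 1 point a library, with vehicle and PAM3CSK4 libraries in separate colours and the replicate number beside each PAM3CSK4 point. DNA replication is above all vehicle libraries in all 4 PAM3CSK4 libraries (0.56 to 1.58), mitosis is spread from 0.02 to 1.34, and MHC class II is lowest in replicate 4 (−2.57).

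Lists of respiration and biosynthesis genes had positive medians and few calls. All 32 nuclear genes of oxidative phosphorylation tested had a positive log2 change, beside 67.3% of all genes. Their median was 0.532, 0.313 after median centring and 0.479 without PAM3CSK4 replicate 4. In 15 of them (46.9%) the groups did not overlap, beside 14.8% of all genes, and 1, Cox5a, rose. The median was 0.529 for 29 ribosome biogenesis genes, and 0.319 without PAM3CSK4 replicate 4. Of these genes 0 were called in limma and 5 had an unadjusted p under 0.05. In 0% of them the groups did not overlap, beside 14.8% of all genes. The list mean less the vehicle mean was −0.375 to 0.2 in vehicle libraries. It was −0.218, 0.599, 0.429 and 1.05 after PAM3CSK4, so replicate 1 lay within the vehicle range. The median was 0.638 for 23 endoplasmic reticulum folding genes (0.562 without replicate 4), of which Manf rose. Of 18 genes of the amino acid stress response, Phgdh, the first enzyme of serine synthesis, had a mean of 5.52 ± 2.27 CPM with vehicle against 43.8 ± 40.3 CPM after PAM3CSK4. Its rise (log2 change 2.49 ± 0.47, adjusted p = 0.013) was lost in 2 of the 8 fits with 1 library left out (adjusted p up to 0.061, without vehicle replicate 1). Aars and Mthfd2 also rose, Mthfd2 only with replicate 4 included. Of 29 glycolytic genes 22 had a positive log2 change (75.9%, near the 67.3% of all genes), Pgam1 rose and Aldoc fell. The mean of the glycolysis list less the vehicle mean was −0.329 to 0.214 in vehicle libraries. After PAM3CSK4 it was −0.00882, 0.358, 0.45 and 0.903, highest in replicate 4. Aldoc was at 3.6, 6.98, 12 and 8.25 CPM with vehicle against 2.17, 0.628, 1.01 and 0.512 CPM after PAM3CSK4, and its fall was held (log2 change −2.03 ± 0.35, adjusted p = 0.0083). The genes of the table held 44.2% to 53.2% of the scaled total in the treated libraries and 35% to 48.3% with vehicle. These ranges overlapped, vehicle replicate 1 was the lowest, and the part of this in medians of such size was not tested.

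Of well expressed genes called in both fits and changed by under 4-fold, the 12 rises and 12 falls with lowest p were taken. Nup205 (chromosome 6, 35177616 to 35247599 in mm10), of the inner ring of the nuclear pore, was at 52.4, 74.5, 69.1 and 62.5 CPM with vehicle against 123, 131, 126 and 134 CPM after PAM3CSK4. Its rise of 0.99 ± 0.19 was held (adjusted p = 0.015). The importin Kpna2, the proteasome subunit Psma6, the protein kinase Prkcb, and the replication factor Pclaf rose by 1.08 ± 0.22, 1.37 ± 0.28, 1.65 ± 0.34 and 1.33 ± 0.28. They were lost in 2, 4, 4 and 3 of the 8 fits with 1 library left out. Tex2, Rrm1, Snx18, Acsl5, Gsr and Mcm4 were also among these rises. Of these 12 rises 1 was held, and of the 12 falls 9. Fam129a, a translation-linked stress gene, was at 160.5, 215, 285 and 235 CPM with vehicle against 108, 70.6, 64.8 and 48.2 CPM after PAM3CSK4. The Rac activator Tiam1 was at 112, 128, 169 and 131 CPM with vehicle against 69.6, 49.5, 47.7 and 52.5 CPM after PAM3CSK4. Txnip, an inhibitor of glucose uptake and thioredoxin, was at 173, 231, 429 and 287 CPM with vehicle against 116, 104, 97 and 73.6 CPM after PAM3CSK4. These 3 falls (log2 changes −1.64 ± 0.27, −1.29 ± 0.21 and −1.45 ± 0.28, adjusted p = 0.0078, 0.0078 and 0.015) were held, as were those of Ccl6, Ccl9, Btg2, Ccr2, Cst3 and Fnbp1. The remaining 3, Il6ra, Padi2 and Plcb2, were lost in 1, 3 and 3 of the 8 fits, with adjusted p up to 0.051, 0.061 and 0.069.

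Several of the ranked genes belong to none of the groups above. Among rises, Rapgef5, an activator of Rap GTPases, was at 1.73, 0.501, 0 and 0.468 CPM with vehicle against 6.63, 60.3, 24 and 11.4 CPM after PAM3CSK4. The receptor phosphatase Ptprm was at 2.85, 3.38, 1.09 and 1.94 CPM with vehicle against 17.7, 49.1, 42.9 and 17.8 CPM after PAM3CSK4. The adhesion receptor Adgrg6 was at 3.39, 7.75, 8.38 and 5.77 CPM with vehicle against 39, 98.9, 64.4 and 17.5 CPM after PAM3CSK4. Their log2 changes were 3.64 ± 0.55, 3.22 ± 0.37 and 2.74 ± 0.45 (adjusted p = 0.0044, 9.6e-04 and 0.0077), all held. Dnase1l3, a secreted DNase that degrades the DNA of dead cells and that dendritic cells and macrophages make, was at 4.86, 5.43, 4.7 and 4.51 CPM with vehicle against 25.1, 56.4, 130.4 and 14.9 CPM after PAM3CSK4. Its rise of 2.84 ± 0.51 was lost in 1 of the 8 fits with 1 library left out (adjusted p up to 0.051, without vehicle replicate 1). Among falls, Skint3 was at 20.6, 18.1, 22.2 and 15.9 CPM with vehicle against 2.18, 1.27, 0.733 and 0.353 CPM after PAM3CSK4. The glycosyltransferase Galnt9 was at 9.1, 10.8, 9.2 and 9.51 CPM with vehicle against 0.659, 0.188, 0.10 and 0.372 CPM after PAM3CSK4. Dapk1, a death-associated kinase, was at 41, 42.8, 35.3 and 47.6 CPM with vehicle against 9.46, 3.73, 6.51 and 3.56 CPM after PAM3CSK4. These falls (log2 changes −3.31 ± 0.28, −3.02 ± 0.23 and −2.73 ± 0.28, adjusted p = 1.0e-04, 3.7e-05 and 3.9e-04) were held. The carrier of organic anions Slco2b1 was at 9.12, 19.5, 8.15 and 4.93 CPM with vehicle against 0.189, 0.601, 0.168 and 0.403 CPM after PAM3CSK4. The sulfotransferase Sult1a1 was at 10.5, 13.1, 42.8 and 11.9 CPM with vehicle against 1.66, 2.05, 0.859 and 0.766 CPM after PAM3CSK4. Both falls were held (log2 changes −2.96 ± 0.34 and −2.94 ± 0.4, adjusted p = 9.6e-04 and 0.0023). These 2 are the highest ranked falls with a match to the PU.1 motif GAGGAAGT, and their windows, printed as before with the match in capitals, are the following:
Slco2b1, chr7:99711291-99711590, minus strand, match starting 6 bases after the start site: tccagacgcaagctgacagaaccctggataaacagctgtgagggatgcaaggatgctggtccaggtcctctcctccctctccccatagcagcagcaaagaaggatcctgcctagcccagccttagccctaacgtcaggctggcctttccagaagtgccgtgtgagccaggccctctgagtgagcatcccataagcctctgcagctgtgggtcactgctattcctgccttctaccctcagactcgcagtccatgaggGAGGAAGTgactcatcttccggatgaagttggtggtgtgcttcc
Sult1a1, chr7:126676369-126676668, minus strand, match starting 7 bases before the start site: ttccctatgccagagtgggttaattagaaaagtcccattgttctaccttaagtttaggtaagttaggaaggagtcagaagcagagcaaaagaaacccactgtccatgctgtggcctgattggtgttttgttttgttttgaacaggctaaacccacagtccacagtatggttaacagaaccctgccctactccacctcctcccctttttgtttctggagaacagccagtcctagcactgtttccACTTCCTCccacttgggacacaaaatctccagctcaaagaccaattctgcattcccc

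Markers of dendritic cell subsets did not move alike. Of 13 type 1 dendritic cell markers tested, 12 had a negative log2 change (median −1.08, and −0.678 without PAM3CSK4 replicate 4). The 2 that fell were Tlr3 and Tlr11 (15.4%, beside 2.29% of all genes). Without replicate 4, 2 of 14 rose and 3 fell. Of 13 type 2 markers, 3 fell and 1 rose (23.1% and 7.69%, beside 2.29% and 2.82% of all genes). Cd209a, Mgl2 and Clec10a fell. Itgam, which encodes CD11b, rose by 1.5 ± 0.34 (adjusted p = 0.027), lost in 5 of the 8 fits with 1 library left out (adjusted p up to 0.092, without vehicle replicate 1). Without PAM3CSK4 replicate 4, 4 of the 13 rose and 3 fell, and the median was 0.0785 instead of −0.0748. Of 13 plasmacytoid dendritic cell markers, 6 rose and 1 fell (46.2% and 7.69%, beside 2.82% and 2.29% of all genes). Without replicate 4, 8 rose and 1 fell. Siglech was at 1.39, 5.61, 2.62 and 4.45 CPM with vehicle against 84.8, 18.7, 66.4 and 4.83 CPM after PAM3CSK4. Ly6d was at 0.307, 0.949, 0.102 and 1.67 CPM with vehicle against 53.6, 14.1, 73.5 and 5.82 CPM after PAM3CSK4. They had log2 changes of 2.76 ± 0.7 and 3.94 ± 0.64 (adjusted p = 0.042 and 0.0076). Both were highest in replicates 1 and 3, and Ly6d was held while Siglech was lost in 7 of the 8 fits with 1 library left out (adjusted p up to 0.14, without vehicle replicate 1). The fall among these markers was the lectin Cd209d. The summed level of the 14 plasmacytoid markers was 112 to 197 CPM with vehicle and 616, 283, 726 and 147 CPM after PAM3CSK4. None was at 0 in all libraries. Mouse plasmacytoid cells carry B220, which the gate excluded, and the part of such cells in the rises of Ly6d, Siglech and Atp1b1 was not tested. Of 17 markers of mature migratory dendritic cells, 14 had a positive log2 change (82.4%, beside 67.3% of all genes). With all 8 libraries 0 were called in limma and 3 had an unadjusted p under 0.05, and 5 rose without replicate 4. In 5.88% the groups did not overlap, beside 14.8% of all genes. The list mean less the vehicle mean was −0.502 to 0.547 in vehicle libraries and 0.0371, 1.24, 1.41 and −0.667 after PAM3CSK4.

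Markers of other cells were also counted. Of 17 resident macrophage markers tested, 3 rose and 5 fell (17.6% and 29.4%, beside 2.82% and 2.29% of all genes). These were Cd5l, Hmox1 and Spic against Axl, Cd163, Apoe, Trf and Mrc1. Without PAM3CSK4 replicate 4, 4 rose and 5 fell. Of 10 classical monocyte markers, Ccr2 and Fn1 fell, with summed levels of 1020 to 1850 CPM with vehicle, 512 to 748 CPM in PAM3CSK4 replicates 1 to 3 and 2360 CPM in replicate 4. Of 8 stromal and endothelial markers tested, Kdr and Pecam1 rose. Kdr, the endothelial receptor of VEGF, was at 1.96, 1.32, 1.38 and 1.71 CPM with vehicle against 7.02, 35.6, 55.9 and 3.68 CPM after PAM3CSK4. Cdh5, VE-cadherin, was at 0.573, 0.923, 0 and 1.52 CPM with vehicle against 24.4, 4.82, 16.5 and 0.98 CPM after PAM3CSK4. Both were higher in PAM3CSK4 replicates 1 to 3 than in replicate 4. The sum of 16 such markers was 50.6 to 114 CPM with vehicle and 112 to 376 CPM after PAM3CSK4, and the part of endothelial RNA in other rises was not tested. Of 19 neutrophil markers tested, Mmp8 and Csf3r rose. Mmp8, a neutrophil collagenase, was at 0.321, 2.08, 1.92 and 2.27 CPM with vehicle against 5.35, 20.5, 11.8 and 45.3 CPM after PAM3CSK4. Csf3r, the receptor of the growth factor G-CSF, was at 24, 32.4, 9.95 and 31.7 CPM with vehicle against 39.5, 84.4, 52.6 and 76.3 CPM after PAM3CSK4. Csf3r was lost without replicate 4, where Elane, Mpo and Ltb4r1 fell and Ltf and Lcn2 rose.

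**Figure D5:**
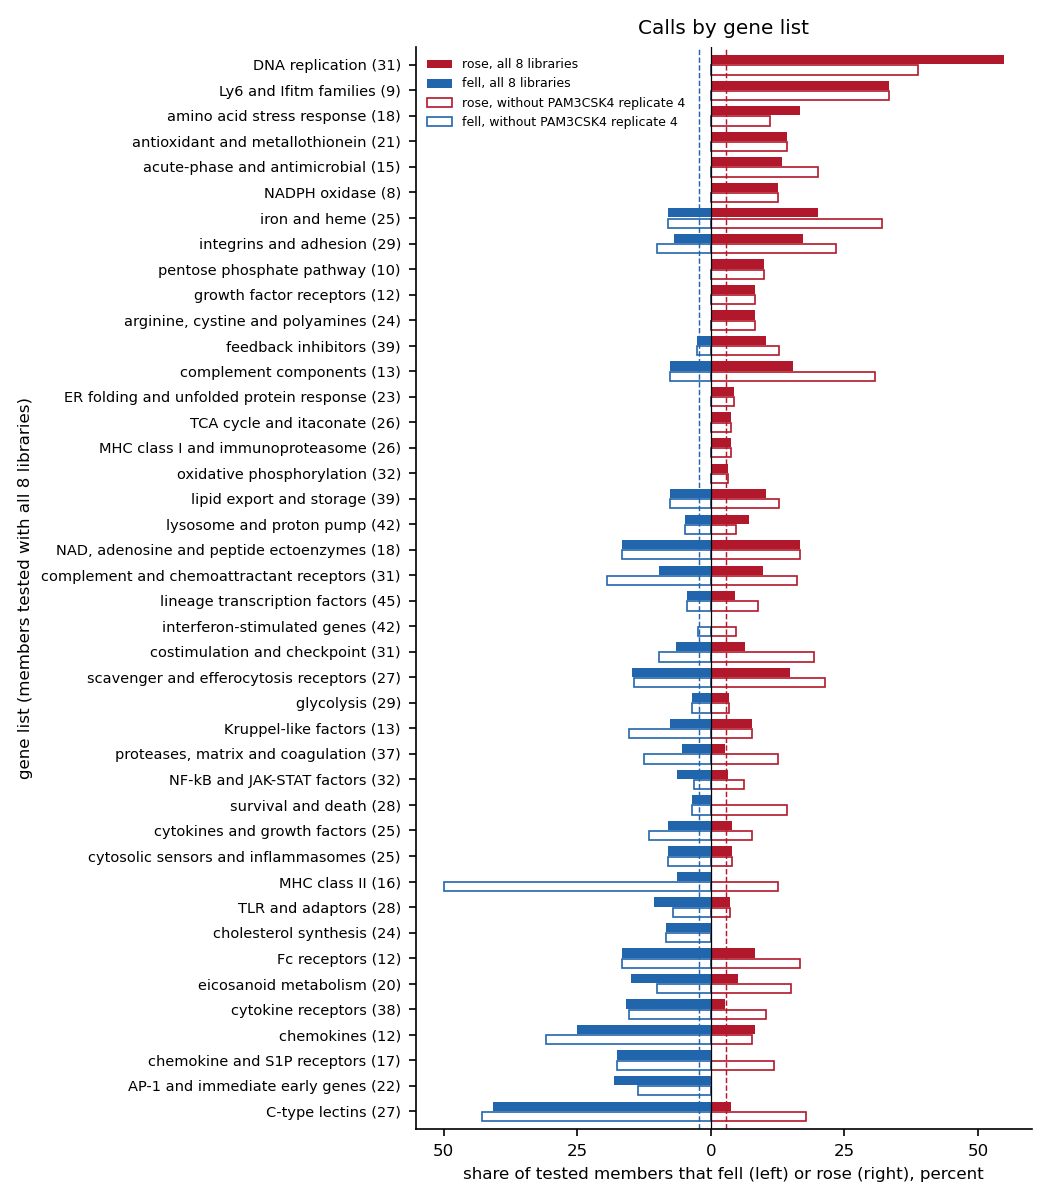
Share of tested members that rose (right) and fell (left), in percent on the horizontal axis, for each pathway and family list with at least 1 call in either fit. Filled bars are with all 8 libraries and open bars without PAM3CSK4 replicate 4. Dashed lines mark the shares over all genes tested with all 8 libraries, 2.82% rises and 2.29% falls. For the open bars those shares were 4.03% and 2.80%, which are not drawn. DNA replication has the highest share of rises, 17 of 31, and C-type lectins the highest share of falls with all 8 libraries, 11 of 27.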

How the data were processed

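RNA was measured by bulk sequencing of 8 sorted dendritic cell libraries, from total RNA depleted of ribosomal RNA, per the labels' protocols. The authors deposited a table of 24980 genes named FPKM, whose values are read here as CPM with 1e-04 added to each, which was subtracted; 66.3% to 69.0% of low values lay within 0.05 of a whole multiple of 1 step per library that did not depend on gene length, too few to take them back to counts. If that step is 1 read, 1 CPM stood for 28.2 to 71.6 reads, which limits low genes most. Per the submitters' processing notes, STAR 2.5.3a and Partek were used with mm10, in roles that are not stated. Neither are the annotation and the strand setting, so antisense and overlapping genes cannot be told apart.

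Groups and replicate numbers came from the titles. PAM3CSK4 was tested against vehicle with the limma package (version 3.58.1, R 4.3.3), using a linear model and moderated variances whose prior followed the mean level, on log2(CPM + 1) in a two-sided test, for genes at 1 CPM or more in at least 4 libraries (3 where 1 library was left out), with p-values adjusted after Benjamini and Hochberg across every gene tested and called under 0.05. All adjusted p-values in the text are from this test, which was first tested on simulated data. With 1 library left out, groups of 3 and 4 remain. No list test was made, so 44 pathway and family lists and 15 cell type marker lists are described by counts. The members, the lists and the tests were chosen with earlier results of these data known. Genes were named by rule. The 30 largest rises and 30 largest falls called in both fits were taken, without overlap and at a mean of at least 5 CPM. Of moderate changes also called in both fits, 12 rises and 12 falls at 100 CPM or more were taken by lowest p. Up to 6 called members of each list, those whose call differed between the fits, and genes of the gate and the receptor were added. Zbtb16, Cdk1 and Cdh5 were added after their values were seen, and some genes the rule names are not reported here. Promoter sequences came from RefSeq (GRCm38.p6) and were matched by symbol for 8812 of the 11377 genes tested. Replicate numbers are shared by the groups, but the labels do not say that they mark pairs, so the libraries were compared unpaired. The deviations of same-numbered libraries correlated at 0.0332, 0.290, −0.115 and 0.300. Those of differently numbered libraries correlated at −0.378 to 0.196, so 2 of the same-numbered values lay above that range. Whether some numbers mark a shared origin was not tested. A further 3 columns in the series match no sample by name and were not used.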

Additional observations from a re-analysis of the deposited data

Results flagged for a closer look

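Of 308 groups of 4 libraries examined for the genes and list levels described, 23 held 1 library far from the other 3 on the log2 scale, where chance alone flags about 1 in 20 groups. In PAM3CSK4 replicate 4 there were 10, but some genes were named because their call changed without that library, so this number is not to be read against the chance rate. It was lowest for MHC class II, with a mean log2 difference from vehicle of −2.57 over the list, H2-Aa at 182 CPM and Cd74 at 337 CPM, for Cx3cr1 at 31.3 CPM, for Tlr3 at 0.448 CPM, for Clec4a4 at 0.0739 CPM and for Tsc22d3 at 8.15 CPM. It was highest for Ly6g at 2.48 CPM, Mpo at 1350 CPM and Ltb4r1 at 42.6 CPM, genes of neutrophils and their precursors, and the part of such cells in the low values was not tested. PAM3CSK4 replicate 1 was lowest for Marco at 15.7 CPM and Klf7 at 6.06 CPM, and replicate 2 for Tyk2 at 37.9 CPM.

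With vehicle, replicate 1 stood apart 6 times: lowest for Cst3 at 399 CPM, Pgam1 at 59.5 CPM, Mmp8 at 0.321 CPM, the plasmacytoid marker sum at 112 CPM and the oxidative phosphorylation list at a mean log2 difference of −0.327, and highest for Cyp27a1 at 128 CPM. Replicate 3 was highest for Sult1a1 at 42.8 CPM and the only one above 0 for Saa3, at 0.281 CPM. Replicate 4 was highest for H2-DMa at 316 CPM and lowest for Irak3 at 4.93 CPM.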

How the results depend on the processing

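With all 8 libraries 582 genes changed, 321 up and 261 down. Leaving out 1 library at a time gave 184 to 1008 calls, with 57 to 639 rises and 108 to 369 falls. The other counts that moved by more than 1.5 times were 166 calls (63 rises, 103 falls) with no filter on low values, 1649 (1064 and 585) with array weights, 208 rises and 487 falls after median centring, 438 falls after quantile normalization, and 547 falls without PAM3CSK4 replicate 4 with median centring; for array weights and rescaling the cause was not tested, and no filter tests more genes. With a replicate block 976 genes were called, of which 649 rose. The labels do not say whether same-numbered libraries share more than a number. Of 122 named genes called with all 8 libraries, 0 changed sign under any of the 20 alternatives, 71 to 117 were called with 1 library left out, and 44 with no filter. Signs changed for 5 named genes that were not called. Tlr6 was at −0.0582, −0.142 and −0.134 under common total, median centring and quantile normalization and at −0.151 to 0.244 with 1 library left out. Over the same fits Cx3cr1 ranged from −0.688 to 0.212 (0.00484 without PAM3CSK4 replicate 4 with median centring), Itgax from −1.02 to 0.0877, Elane from −1.28 to 0.24 and Mpo from −1.2 to 0.271. Depth limits genes near 1 CPM, and groups of 4 libraries of unknown origin limit the rest.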
